A study of Caenorhabditis elegans with 12 samples.

Results

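P granules are condensates of RNA and protein that mark the germ line of the nematode Caenorhabditis elegans. The 10 genes described here encode their best-known structural proteins. They are pgl-1 and pgl-3, the Vasa-like helicase genes glh-1, glh-2 and glh-4, deps-1, and the maternal-effect genes meg-1, meg-2, meg-3 and meg-4. They were taken by name from a table of 24238 genes, and all 10 were found and passed the filter on low values. The data are 12 poly(A) RNA libraries of whole animals, 6 from N2 animals, the Bristol wild-type strain, given tetrathiomolybdate (TM), a copper chelator, for 4 days and 6 from N2 animals given dimethyl sulfoxide (DMSO), its control. The labels give no age, stage, sex, dose or culture, so a p-value is set by how much libraries of a group vary, and that variation could be technical. The question is which genes differ in RNA level after the chelator.

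In most of the worm germ line, P granules sit on the outer face of the nuclear envelope, over nuclear pores, where newly exported RNA and small RNA pathways meet. In oocytes and early embryos they come off the nucleus, and during the first divisions they are kept in the cell lineage that makes the germ line. The PGL proteins form the core, the GLH helicases act on RNA and help to hold granules at the nucleus, and the disordered MEG proteins act in the embryo, where MEG-3 and MEG-4 coat the PGL core and gather RNA.

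The clearest difference lay in the 4 meg genes, each of which fell under TM to between 0.736 and 0.750 of the DMSO level. The core gene pgl-3 fell by less, to 0.871 of the DMSO level. The remaining 5 members did not pass the test: pgl-1 and deps-1 lay lower by point estimate, glh-2 and glh-4 lay near 0, and glh-1 lay higher. In all, 5 of the 10 members were lower and 0 higher at an adjusted p below 0.05 (edgeR's quasi-likelihood test, adjusted over 11535 genes). Among all genes tested 16% were lower, 23.7% higher and 39.8% changed in either direction. Of the 5 members that did not pass, pgl-1 was called lower in 2 of 14 other settings and deps-1 in 3. The gene glh-2 was called higher in 1 of them and glh-4 was called in 0. The gene glh-1 was called higher in 9 of the 14, limma-voom among them, whereas DESeq2 did not call it (DESeq2 adjusted p = 0.0573). Over all genes 59.7% of the calls were higher here. In the 9 settings that share was 39.6% with quantile normalization and 55.4% with 3 libraries left out. It was 59.4% with limma-voom, 59.7% with a dispersion that was not robust and 61.5% with a filter at 5 FPKM. With limma on log2(FPKM + 0.1) and log2(FPKM + 1) it was 65.5% and 65.7%. Total counts gave 66.9% and scaling to germline genes 96.8%. The median log2 change was -0.20 over the 10 members and -0.01 over all tested genes. In 3 members, meg-1, meg-2 and meg-3, every TM library lay below every DMSO library, as in 6.41% of all tested genes. In 0 members did every TM library lie above, against 16.1% of all tested genes.

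**Figure D1:**
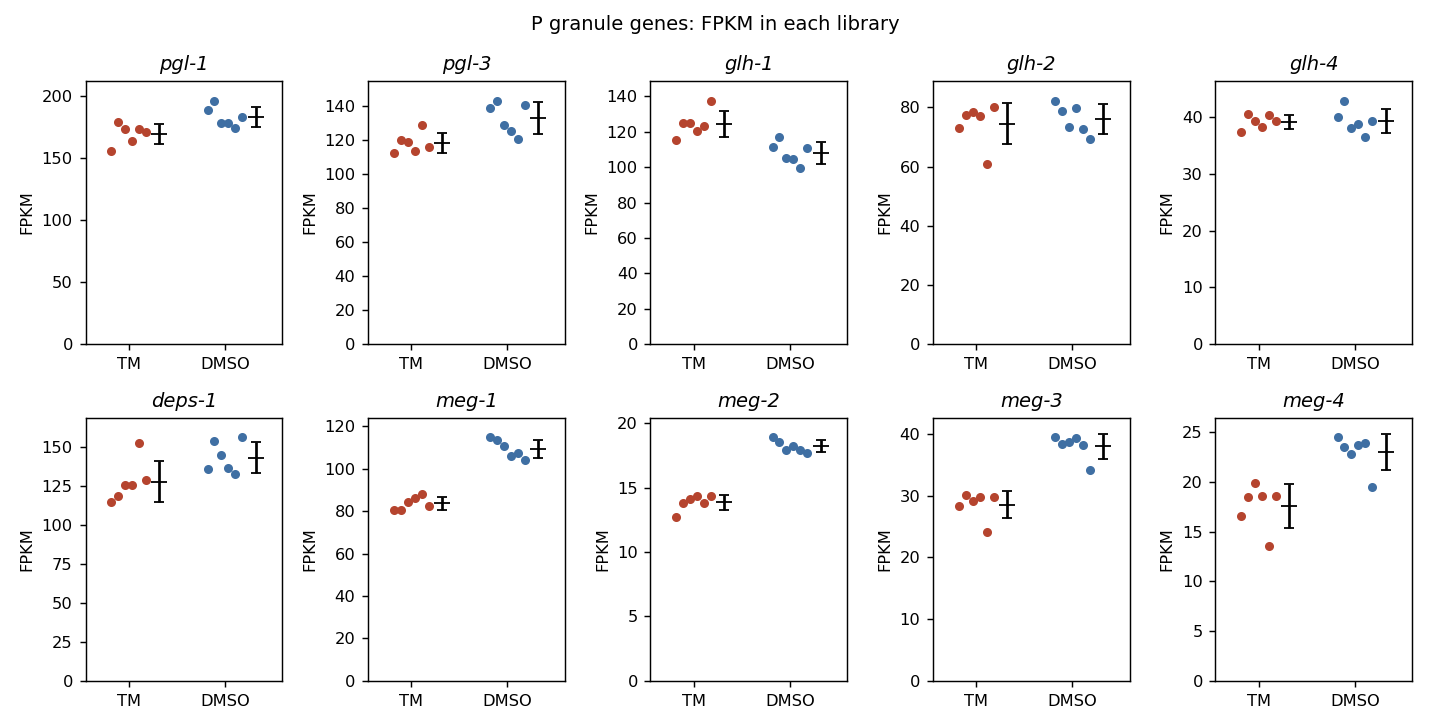
FPKM of each P granule gene (y axis, from 0) in the 6 TM libraries (red) and the 6 DMSO libraries (blue), each point 1 library in order of its replicate number, with the mean and SD in black. The TM points of meg-1, meg-2 and meg-3 lie below all DMSO points, those of glh-4 lie within the DMSO range, and those of glh-2 overlap it except for TM replicate 5 at 61.0 FPKM.

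Levels are given in FPKM, fragments per kilobase of transcript, scaled to library depth, which allows genes of different length to be compared. In the TM libraries pgl-1 had the highest level, at 169 ± 8.35 FPKM, and meg-2 the lowest, at 13.8 ± 0.611 FPKM (SD, n = 6). In the DMSO libraries the same genes stood at the ends, with 183 ± 8.24 FPKM for pgl-1 and 18.2 ± 0.457 FPKM for meg-2. Between them the order in TM was deps-1, glh-1, pgl-3, meg-1, glh-2, glh-4, meg-3 and meg-4. In DMSO it was deps-1, pgl-3, meg-1, glh-1, glh-2, glh-4, meg-3 and meg-4. Neighbours that differed by less than the sum of their SDs were deps-1 and glh-1, glh-1 and pgl-3, and meg-1 and glh-2 in TM. In DMSO they were deps-1 and pgl-3, meg-1 and glh-1, and glh-4 and meg-3. The meg-1 level was above that of glh-1 in 4 of the 6 DMSO libraries. Each member had between 2459 and 32160 counts per library, of totals between 61432401 and 67068328, and by mean FPKM pgl-1 ranked 645 of 11535 tested genes and meg-2 ranked 5766.

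The members lie on 4 chromosomes, in coordinates of WBcel235. The helicase genes and deps-1 are on chromosome I: glh-1 at 6854478 to 6857536, glh-2 at 6513928 to 6517507, glh-4 at 3727027 to 3731179 and deps-1 at 506473 to 509056, all on the plus strand. The gene pgl-1 lies on chromosome IV (6974442 to 6977318, minus strand) and pgl-3 on chromosome V (4755979 to 4758587, plus strand). The meg genes are on the X chromosome in pairs. The genes meg-1 (13927036 to 13929634) and meg-2 (13922643 to 13926129) are direct neighbours on the minus strand, 906 bases apart. The genes meg-3 (1986469 to 1989607, minus strand) and meg-4 (1682954 to 1686419, plus strand) lie 300049 bases apart. Of the 1575 tested genes of the X chromosome 14.5% were lower and 28.0% higher in TM, with a median log2 change of 0.08. All members are multi-exon protein-coding genes, with 6 exons in meg-1 and meg-2, 7 in meg-3, meg-4 and glh-1, and up to 12 in deps-1. The coding regions run from 574 codons in the shorter isoform of deps-1 to 1156 in glh-4. The annotation overlaps deps-1 with the protein-coding gene Y65B4BL.7 on the other strand, over 109 bases at the end of deps-1. That gene had 1.28 ± 0.185 FPKM in TM and 0.676 ± 0.196 FPKM in DMSO (SD, n = 6), far below deps-1. Members of each family resemble each other in sequence, and how the counting placed reads shared by related genes is not given in the sources used here.

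Among the MEG genes, meg-3 encodes the main RNA-gathering coat protein of embryonic P granules. It had 24.2 FPKM in the lowest TM library, a median of 29.4 and 30.1 in the highest, against 34.1, 38.5 and 39.5 FPKM in DMSO. The groups did not overlap, and the log2 change was -0.44 ± 0.056 (SE, edgeR adjusted p = 2.97e-05). The lowest library of each group stood apart for this gene, TM replicate 5 at 24.2 FPKM and DMSO replicate 6 at 34.1 FPKM. Its partner meg-4 encodes a related coat protein that can partly stand in for MEG-3. Its TM libraries ran from 13.5 through a median of 18.5 to 19.9 FPKM, against 19.5, 23.6 and 24.5 FPKM in DMSO. Here the groups touched, because DMSO replicate 6, at 19.5 FPKM, lay just below the highest TM library. The change was -0.42 ± 0.080 (edgeR adjusted p = 0.000858), and without DMSO replicate 6 it was -0.45 (edgeR adjusted p = 0.000591).

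The genes meg-1 and meg-2 act in the embryonic germ lineage, where their products are needed for P granule behaviour and later fertility. The meg-1 transcript was the most abundant of the 4 and had 80.6, 83.3 and 87.9 FPKM as lowest, median and highest TM values, against 104, 109 and 115 FPKM in DMSO. Every TM library was lower than every DMSO library, with a gap wider than the range of either group (log2 change -0.42 ± 0.054, edgeR adjusted p = 3.96e-05). The meg-2 libraries ran from 12.7 through 14 to 14.3 FPKM in TM, against 17.7, 18.1 and 18.9 FPKM in DMSO. Again the groups did not overlap (log2 change -0.43 ± 0.055, edgeR adjusted p = 3.86e-05). Between 3.42% and 4.07% of all tested genes had a more negative log2 change than a given meg gene. TM replicate 5 was the lowest TM library for meg-3 and meg-4 and the highest for meg-1. The 4 meg genes passed in all 12 fits that left out 1 library.

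**Figure D2:**
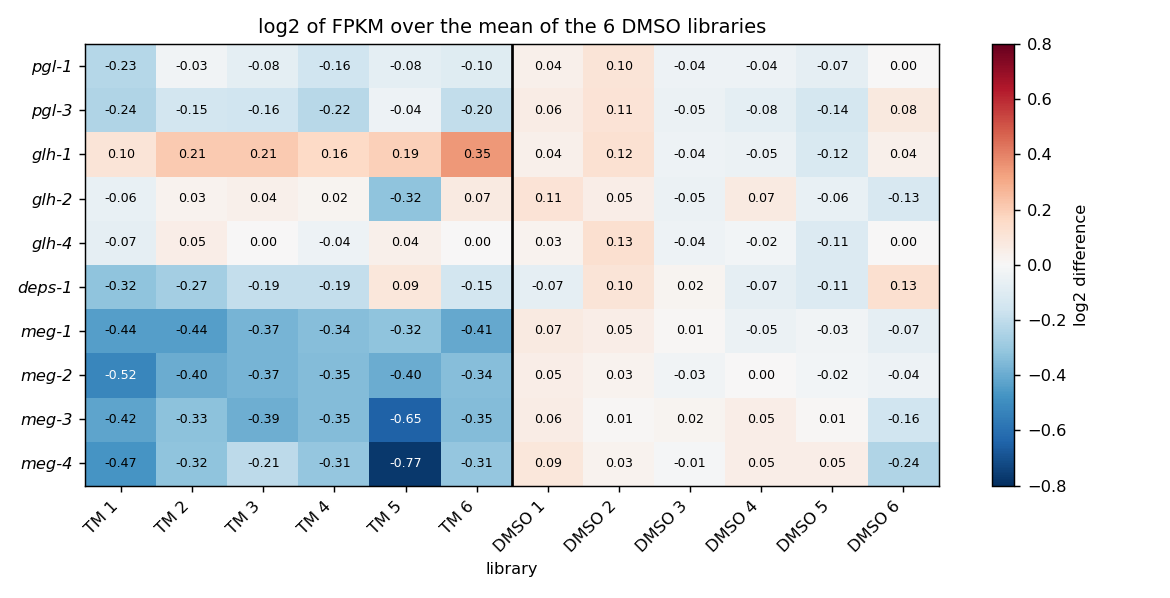
Each cell gives the log2 of a gene's FPKM in a library (columns: 6 TM libraries left of the line, 6 DMSO libraries right of it) over its mean in the 6 DMSO libraries; blue is lower and red higher. The meg rows are blue in all 6 TM libraries, from -0.21 to -0.77, and the glh-1 row is red in all 6, from 0.10 to 0.35.

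The PGL genes encode the self-assembling core proteins of the granule. For pgl-3 the lowest, median and highest TM values were 112, 118 and 129 FPKM, against 121, 134 and 143 FPKM in DMSO, so the groups overlapped. Its fall was smaller than that of the meg genes (log2 change -0.20 ± 0.073, edgeR adjusted p = 0.0413). On a scale set by the germline genes described below, its log2 change was 0.05. The call held without DMSO replicate 4 or 5 or TM replicate 5 and was lost without any other single library, with adjusted p up to 0.0934. The founding member pgl-1 had 156, 172 and 179 FPKM in TM, against 174, 180.5 and 196 FPKM in DMSO. Its groups overlapped as well, with a log2 change of -0.14 ± 0.061 (edgeR adjusted p = 0.0773), and 0.10 relative to germline genes. Leaving out DMSO replicate 5 or TM replicate 5 brought pgl-1 past the threshold, with adjusted p of 0.044 and 0.035, and so did median-ratio scaling and DESeq2.

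The GLH genes encode Vasa-like DEAD-box RNA helicases. The TM values of glh-1, the main helicase of the family, were 116, 124 and 138 FPKM as lowest, median and highest, against 99.4, 108 and 117 FPKM in DMSO. Most TM libraries thus lay above the DMSO range, but the groups touched. The log2 change of 0.17 ± 0.065 missed the threshold by the narrowest margin (edgeR adjusted p = 0.05002). Of 12 fits that left out 1 library each, 3 called glh-1 higher, those lacking DMSO replicate 2, TM replicate 1 and DMSO replicate 6, with adjusted p from 0.0239 to 0.0365, and in the other 9 it reached at most 0.113. Without DMSO replicates 2 and 6 and TM replicate 5 together the change was 0.25 (edgeR adjusted p = 0.000441). Its close relative glh-2 had 61.0, 77.2 and 80.0 FPKM in TM, against 69.3, 76.0 and 82.3 FPKM in DMSO. The groups overlapped nearly completely, with only TM replicate 5 below the DMSO range (log2 change -0.06, 95% interval -0.18 to 0.06, edgeR adjusted p = 0.463). The largest helicase gene, glh-4, had 37.3, 39.3 and 40.6 FPKM in TM, against 36.5, 39.1 and 42.9 FPKM in DMSO, all TM values within the DMSO range. Its log2 change was -0.04, with a 95% interval of -0.16 to 0.08 (edgeR adjusted p = 0.665), and its sign turned under total-count scaling.

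The gene deps-1 encodes a P granule protein needed for normal granule assembly and for normal levels of glh-1 RNA. Its TM values were 115, 125 and 152 FPKM, against 132, 140.4 and 156 FPKM in DMSO. In TM all libraries but replicate 5 lay below the lowest DMSO library, and TM replicate 5 lay among the highest DMSO libraries. The log2 change was -0.20 ± 0.089 (edgeR adjusted p = 0.0910), and 0.06 relative to germline genes. With all 12 libraries, deps-1 passed under DESeq2 (-0.22, DESeq2 adjusted p = 0.0472) and after quantile normalization (-0.14, limma adjusted p = 0.0327). Without TM replicate 5 the change of deps-1 was -0.27 and passed (edgeR adjusted p = 0.00535). It also passed without DMSO replicates 2 and 6 and TM replicate 5 (-0.16, edgeR adjusted p = 0.00761). These 3 libraries stood apart on the second principal component of all tested genes, where they lay between -39.3 and -19.3 and the other libraries between 1.56 and 15.5. The same 3 libraries had the highest deps-1 levels of their groups.

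Ratios of related genes within a library do not depend on how libraries are scaled against each other, and 5 such pairs were compared by two-sided exact permutation tests over the 12 libraries. The members were chosen with earlier results of these data known, so these p-values only describe the ratios. No share over pairs of other genes was computed. The ratio of glh-4 to glh-1 FPKM was 0.285, 0.319 and 0.328 as lowest, median and highest in TM, against 0.355, 0.364 and 0.371 in DMSO. The groups did not overlap (log2 difference -0.21 ± 0.032 SE, exact permutation p = 0.00216, the smallest 924 splits allow, and 0.0108 adjusted over the 5 pairs). The ratio of glh-2 to glh-1 was 0.495, 0.623 and 0.638 in TM, against a median of 0.715 and a highest value of 0.763 in DMSO. It was lower in TM, and of the DMSO libraries only replicate 6 fell within the TM range (log2 difference -0.24 ± 0.072, exact permutation p = 0.00866, adjusted 0.0216). Set against either relative, glh-1 was thus higher in TM. The 2 ratios share glh-1 and so are not independent, and a ratio does not show which of its genes moved. Without TM replicate 5 the difference for glh-2 over glh-1 was -0.18 (adjusted exact permutation p = 0.0379). The ratio of pgl-3 to pgl-1 was 0.671, 0.692 and 0.746 in TM, against 0.694, 0.727 and 0.770 in DMSO, a difference of -0.05 ± 0.032 that did not pass (exact permutation p = 0.123, adjusted 0.206). The ratios within the meg pairs did not pass. The ratio of meg-2 to meg-1 averaged 0.165 ± 0.00713 in TM and 0.167 ± 0.00396 in DMSO (SD, n = 6), a log2 difference of -0.01 ± 0.029 SE (exact permutation p = 0.723, adjusted 0.723). The ratio of meg-4 to meg-3 averaged 0.614 ± 0.0422 in TM and 0.605 ± 0.0199 in DMSO, a difference of 0.02 ± 0.045 (exact permutation p = 0.680, adjusted 0.723).

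**Figure D3:**
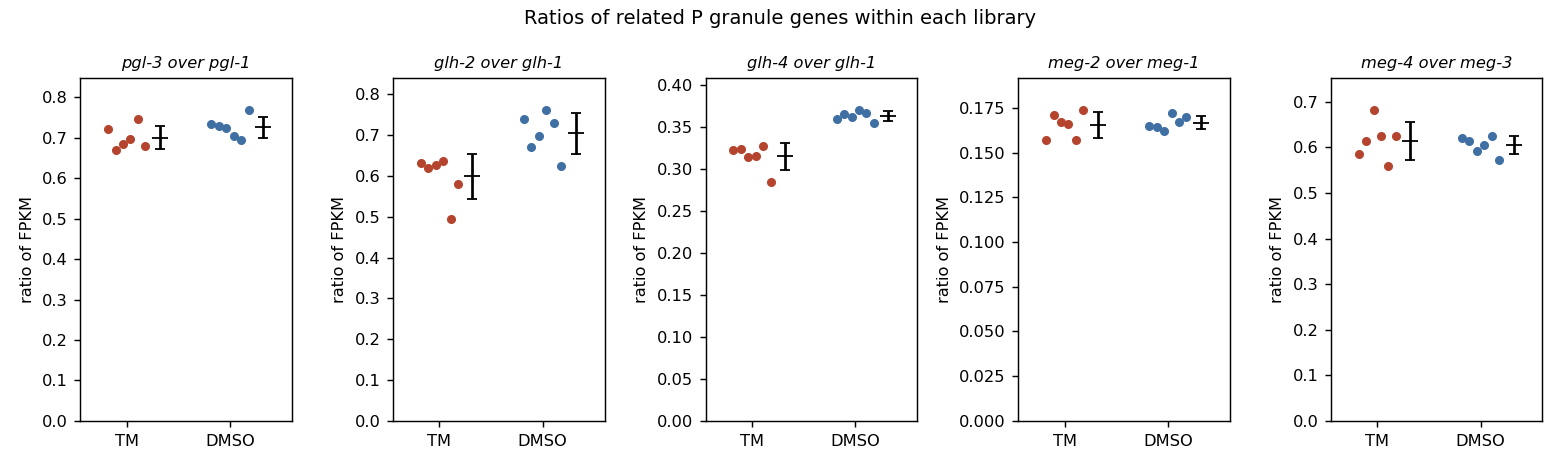
Ratio of the FPKM values of 2 related genes within each library (y axis, from 0), for the 6 TM libraries (red) and the 6 DMSO libraries (blue), with the mean and SD in black. The TM points lie lower for glh-2 over glh-1 and for glh-4 over glh-1, where the TM ratios reach at most 0.328 and the DMSO ratios begin at 0.355, and intermingle for the meg pairs.

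The weight of the meg genes within the group was smaller in TM. Their part of the summed FPKM of the 10 members was 18.0% ± 0.674 in TM and 21.7% ± 0.981 in DMSO (SD, n = 6), without overlap. This split of the members was made after their values had been seen, so it is a description without a test. The meg sum was 144 ± 4.27 FPKM in TM and 189 ± 7.55 FPKM in DMSO. The sum of the other 6 members was 653 ± 25.9 FPKM in TM and 682 ± 33.8 FPKM in DMSO (SD, n = 6), with overlapping groups.

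Germ cells are only part of a whole animal, and in bulk RNA fewer cells of a type and less RNA per cell cannot be told apart. A list of 32 genes of germline chromosomes and stem cells, such as him-3 and syp-1, summed to 1093 to 1361 FPKM in TM and 1324 to 1552 FPKM in DMSO, and 17 of the 32 fell, 0 rose, with a median log2 change of -0.21. When the libraries were scaled to that list, the median log2 change of all tested genes moved by 0.243, to 0.234. Of the 11535 tested genes 4761 were then higher and 158 lower. The meg changes were then between -0.20 and -0.17. The genes meg-3 (edgeR adjusted p = 0.00680) and meg-4 (adjusted p = 0.0298) stayed past the threshold, while meg-1 (adjusted p = 0.153) and meg-2 (adjusted p = 0.0908) did not. These estimates were alike, so the split in calls does not separate the meg pairs. The germline list summed to 1093 FPKM in TM replicate 5 and to 1320.5 to 1361 FPKM in the other TM libraries. Among the TM libraries, replicate 5 was lowest for meg-3 and meg-4 and highest for meg-1. On the germline scale glh-1 was higher by 0.42 (edgeR adjusted p = 0.00265) and glh-2 by 0.18 (adjusted p = 0.0292), and glh-4 stood at 0.21 without passing (adjusted p = 0.0813). The changes of glh-2 and glh-4 lay below the median of all tested genes on that scale. The values of pgl-1, pgl-3 and deps-1 were 0.10, 0.05 and 0.06, with adjusted p of 0.414, 0.750 and 0.763.

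**Figure D4:**
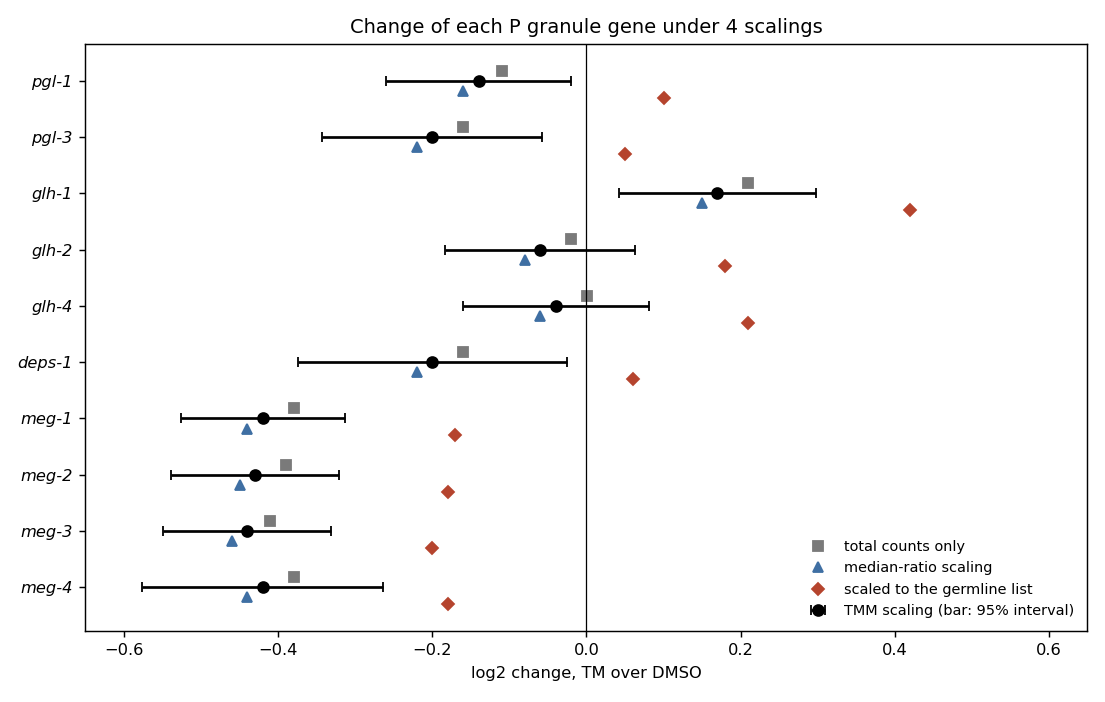
Log2 change of each P granule gene, TM over DMSO (x axis), under TMM scaling (black, bar: 95% interval), total counts only (grey squares), median-ratio scaling (blue triangles) and scaling to the germline list (red diamonds). The meg genes lie left of 0 under all 4 and glh-1 lies right of 0 under all 4, whereas pgl-1, pgl-3, glh-2 and deps-1 change side under the germline scaling and glh-4 changes side under it and under total counts.

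Other genes of the granules were read from textbook lists. Of 23 other P granule parts 6 fell, and 2 rose that averaged under 1 FPKM in DMSO and so reached the filter only through TM. The poly(A) polymerase gene gld-4 was at 102 ± 4.48 FPKM in TM and 119 ± 6.45 FPKM in DMSO (SD, n = 6), a log2 change of -0.25 (edgeR adjusted p = 0.000900). Those that rose were alg-3 and alg-4, Argonautes of spermatogenesis. Their levels were low, 2.60 ± 0.229 FPKM in TM and 0.330 ± 0.165 FPKM in DMSO for alg-3, and 2.75 ± 0.237 FPKM in TM and 0.312 ± 0.262 FPKM in DMSO for alg-4. The relatives pgl-2 and glh-3 did not pass, with log2 changes of -0.02 and -0.13 (edgeR adjusted p = 0.892 and 0.214). In the neighbouring Z granules, mutator foci and P bodies, 8 of 21 genes (38.1%) fell and 0 rose, with a median of -0.24. Their smallest p belonged to mut-16, the scaffold gene of mutator foci (26.9 ± 3.34 FPKM in TM and 36.3 ± 3.35 FPKM in DMSO, log2 change -0.46, edgeR adjusted p = 0.000375). Lower too were the small RNA gene simr-1, by a log2 change of -0.34 (adjusted p = 0.00193), and the P body gene patr-1, by -0.25 (adjusted p = 0.000595).

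Genes that place P granules in the embryo or remove them fell in 7 of 14 cases and rose in 0, with a median of -0.17. The kinase gene mbk-2, whose product modifies MEG proteins, was at 93.3 ± 2.24 FPKM in TM and 113 ± 3.80 FPKM in DMSO (log2 change -0.31, edgeR adjusted p = 0.000373). Of the polarity genes, mex-6 had a log2 change of -0.40 (adjusted p = 0.000141) and par-3 one of -0.22 (adjusted p = 0.00178). Of 7 maternal RNAs known to gather in embryonic P granules 6 fell and 0 rose, with a median of -0.29, and par-3 is in both lists. Among them were nos-2, at 150.1 ± 11.8 FPKM in TM and 211 ± 4.93 FPKM in DMSO (log2 change -0.52, edgeR adjusted p = 4.08e-05), and pos-1, whose log2 change was -0.38 (adjusted p = 0.000310). The log2 changes of the meg genes thus lay between those of pos-1 and nos-2. Of 17 oocyte and eggshell genes 13 fell and 0 rose, with a median of -0.28, the leading ones being oma-2 (log2 change -0.43, adjusted p = 0.000399), egg-1 (log2 change -0.38, adjusted p = 0.000264) and egg-3 (log2 change -0.34, adjusted p = 0.000493). The leading genes of the germline chromosome list were cosa-1 (log2 change -0.38, edgeR adjusted p = 0.000408), syp-2 (log2 change -0.27, adjusted p = 0.000888) and dsb-2 (log2 change -0.28, adjusted p = 0.000895). Relative to the germline chromosome list, 0 genes of the placement, oocyte or P granule RNA lists passed as lower. Their log2 changes there could still be as large as those of the meg genes, with -0.27 for nos-2 (adjusted p = 0.0687), -0.18 for oma-2 (0.257) and -0.15 for mex-6 (0.279).

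Markers of other cells differed between the groups too. The 17 oocyte genes summed to 9205 to 10983 FPKM in TM and 10834 to 12115 FPKM in DMSO. The 18 sperm genes summed to 57.6 to 77.3 FPKM in TM and 24.6 to 35.6 FPKM in DMSO, but 11 of them were below the filter. Of those tested, the smallest p belonged to spe-15 (log2 change 1.21, edgeR adjusted p = 2.43e-06), spe-11 (log2 change 3.59, adjusted p = 2.80e-06) and gsp-3 (log2 change 3.17, adjusted p = 9.62e-06). The most abundant gene of the list, spe-44, did not pass (log2 change -0.04, edgeR adjusted p = 0.690). Its level was 16.2 ± 0.784 FPKM in TM and 16.3 ± 1.45 FPKM in DMSO (SD, n = 6). As spe-11 averaged 0.445 FPKM in DMSO, it reached the filter only through TM, so no count is drawn from the sperm genes. The 10 body wall muscle genes, among them mup-2 (log2 change 1.06, adjusted p = 1.42e-06), myo-3 (log2 change 0.84, adjusted p = 2.80e-06) and unc-54 (log2 change 0.78, adjusted p = 7.67e-06), rose in all 10 cases, against 23.7% of all tested genes. Their sum was 2785 to 3592 FPKM in TM and 1873 to 2360.1 FPKM in DMSO. Of 7 early zygotic genes only pes-10 reached the filter, and it fell (log2 change -0.59, adjusted p = 0.0305). No marker of these lists was at 0 in all libraries. The part of these shifts in the members' values was not tested. The scaling to germline genes above gives the values relative to a list whose own median log2 change was -0.21, so it cannot measure that part.

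**Figure D5:**
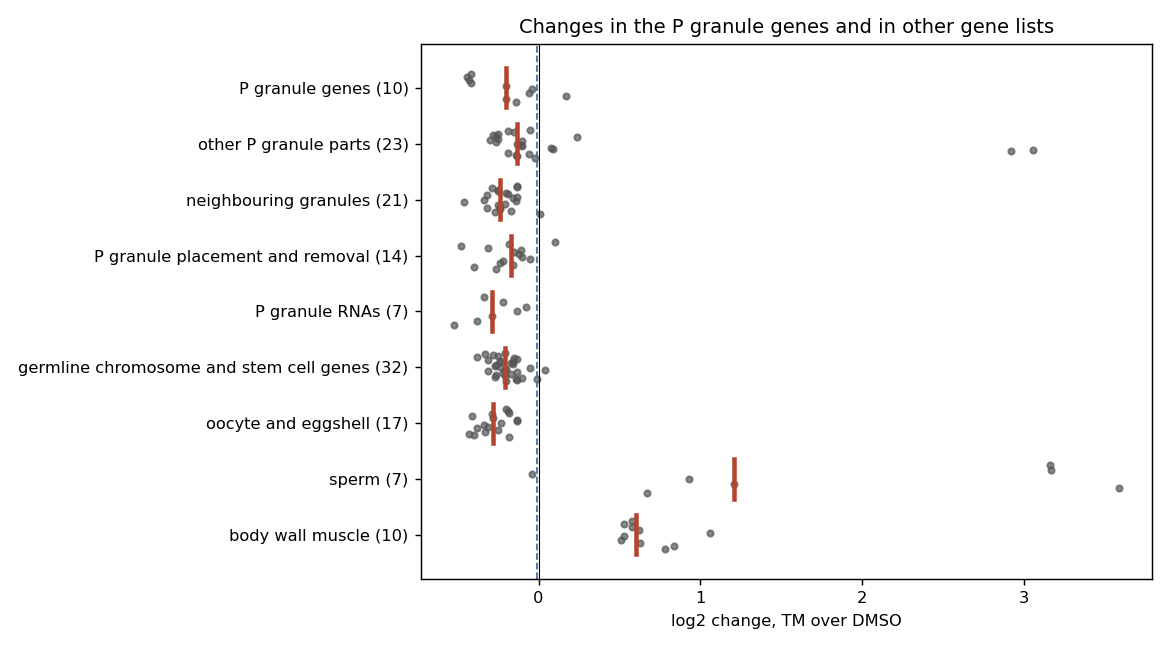
Log2 change, TM over DMSO, of each tested gene (grey points) in the P granule genes and in 8 other lists, with the number of tested genes in brackets, the median of each list in red and that of all tested genes as a dashed line at -0.01. The medians of the neighbouring granules, the placement genes, the P granule RNAs and the germline genes lie between -0.29 and -0.17 and that of the muscle genes at 0.60; the sperm and other P granule lists hold genes that reached the filter only through TM.

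The genes whose level across the 12 libraries was most like the mean meg profile were trcs-1, gras-1, the DP transcription factor gene dpl-1, the choline transporter-like gene chtl-1 and the nuclear envelope gene sun-1, with Pearson r from 0.979 to 0.986. Their log2 changes were -0.43, -0.34, -0.27, -0.42 and -0.27. Those most like the mean profile of the other 6 members were cul-3, gpi-1, hel-1, cdc-48.2 and rpn-2, with r from 0.953 to 0.967 and log2 changes from -0.09 to -0.05, none past the threshold. These are descriptions over 12 libraries that share the treatment and depth, and the second profile averages members with changes of both signs.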

How the data were processed

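The authors deposited 1 table with a read count and an FPKM value per gene and library. Per the submitters' processing notes, reads were trimmed with cutadapt 1.9, checked with FastQC, aligned with HISAT2 2.2.1 and assembled with StringTie. Per the labels, RNA was poly(A)-selected and made into dUTP libraries that keep strand. Not given in the sources used here are the counting tool, whether it used strand, and the genome build. Gene IDs matched the WBcel235 annotation for 24232 of 24238 genes, with 97% of starts and 95.9% of ends equal.

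The members and lists were chosen with earlier results of these data known. Deposited counts of the 11535 genes whose mean reached 1 FPKM were tested with edgeR 4.0.16 (TMM scaling, robust quasi-likelihood F test, treatment as the only term, Benjamini-Hochberg adjustment, threshold 0.05). SE is the log2 change divided by the square root of F, and 95% intervals use the normal quantile. The germline scaling used each library's median log ratio over 32 germline genes. Length correction used a robust loess on the transcript length implied by counts and FPKM. Of the list entries, 2 were not matched by name. Named genes were all members, up to 3 genes with the smallest p among those past the threshold in each list, and the 5 most like each profile. Added to these were him-3, syp-1, pgl-2, glh-3, spe-44 and Y65B4BL.7. The permutation tests are exact over 924 splits. Alternatives were other scalings, filters, tools, a length correction, a replicate block, each library left out and 3 libraries left out together. They used limma 3.58.1 and DESeq2 1.42.0 in R 4.3.3. Library totals were between 61432401 and 67068328 counts; genes near the filter rest on few counts and carry more counting error.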

Additional observations from a re-analysis of the deposited data

Results flagged for a closer look

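In 30 groups of 6 libraries, the lowest and highest values of the 10 members and the 5 ratios were compared with their neighbours by Dixon's test, and 7 stood apart. Chance gives about 1 in 20 independent groups, but these groups share libraries and the ratios share genes with the levels. The count of 7 is thus not set against that rate. TM replicate 5 accounts for 3 of the 7. Its glh-2 level was 61.0 FPKM, below 73.1 to 80.0 FPKM in the other TM libraries. Its deps-1 level of 152 FPKM lay above 115 to 128 FPKM in the others, and its meg-3 level of 24.2 FPKM lay below 28.3 to 30.1 FPKM. DMSO replicate 6 was low for meg-3, at 34.1 FPKM beside 38.1 to 39.5 FPKM in the other DMSO libraries. It was also low for meg-4, at 19.5 FPKM beside 22.9 to 24.5 FPKM. TM replicate 1 was low for meg-2, at 12.7 FPKM beside 13.8 to 14.3 FPKM. In TM replicate 6 the ratio of glh-4 to glh-1 was 0.285, and 0.315 to 0.328 in the other TM libraries.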

How the results depend on the processing

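Counts and most single genes were recomputed under 26 alternatives, 12 of them leaving out 1 library. The 5 ratios had 15, and alg-3, alg-4, spe-11, spe-15 and pes-10 dropped out under the 5 FPKM filter. The 4 meg genes kept their direction throughout, and meg-1 and meg-2 missed the threshold only when scaled to germline genes. That scaling gave 4761 of 11535 genes higher and 158 lower, with 2 members higher and 2 lower. Among the other P granule parts tested at the 1 FPKM filter, alg-3 and alg-4 reached it only through TM. Under germline scaling, 7 of 23 other P granule parts were higher and 0 lower. There, 1 neighbouring-granule gene was higher and 1 lower, and 2 placement genes were higher and 0 lower. P granule RNAs, oocyte genes and early zygotic genes lower were 0, 0 and 0, and 1 germline gene was higher and 0 lower. Quantile normalization gave 1932 genes higher and 2950 lower, with 1 member and 5 other P granule parts higher and 11 germline genes lower. A filter at 5 FPKM left 1630 genes higher and 1019 lower, and 1 member higher. It left 3 other P granule parts, 3 placement genes, 8 germline genes, 8 oocyte genes and 0 early zygotic genes lower. All 17 oocyte and 32 germline genes remained in that test, and the log2 changes shifted by a median of 0.062, with meg-1 at -0.35 and glh-1 at 0.23. Without any filter 3760 of 24238 genes were higher, 14 sperm genes among them. When TM replicate 5 and DMSO replicates 2 and 6 were all left out, 3518 genes were higher and 2832 lower. Among them 1 member and 5 other P granule parts were higher, and 10 other parts, 18 neighbouring-granule genes and 24 germline genes lower. The meg-2 to meg-1 difference was then 0.01. A dispersion that was not robust and limma-voom each gave 1 member higher, with 2747 and 2745 genes higher over all genes. limma on log2(FPKM + 0.1) and on log2(FPKM + 1) each gave 1 member and 4 other P granule parts higher and 9 germline genes lower. Over all genes they gave 3003 and 3031 higher, and 1579 and 1583 lower. Total counts gave the same 1, 4 and 9, and 0 early zygotic genes lower, with 3023 genes higher and 1499 lower over all genes. Lower neighbouring-granule genes numbered 13 with DESeq2 and 15 with length correction. Over all genes those settings gave 2398 and 2393 lower, against 1851 in the main fit. Length correction left 2 placement genes and 3 P granule RNAs lower. No pairing by replicate number was detected, though 6 libraries per group cannot exclude one. Same-numbered deviations correlated between -0.383 and 0.263, and only 1 of 6 TM libraries matched its own number best. With the replicate block, 4 members, 3 placement genes, 7 oocyte genes and 0 early zygotic genes were lower. The block gave 2328 genes higher and 1305 lower, and pair differences of -0.24 for glh-2 and -0.21 for glh-4 against glh-1, both with adjusted exact permutation p = 0.0781. Sign flips over 6 blocks give no unadjusted p below 0.0312, which these 2 ratios reached, and 2 of 5 ratios at that limit give 0.0781 after adjustment, so the value is no sign of a weaker difference. Leaving out 1 library gave 0 to 1 members higher and 4 to 7 lower, 4 to 7 placement genes, 9 to 17 germline genes and 0 to 1 early zygotic genes lower. It gave 2457 to 2949 genes higher and 1517 to 2394 lower over all genes. The meg-2 to meg-1 difference then ran from -0.03 to 0.0049, with 0.0043 without TM replicate 1, and meg-4 to meg-3 from -0.01 to 0.05. The log2 change of glh-2 ran from -0.09 to -0.02 and that of glh-4 from -0.07 to 0.0012. Signs turned under germline scaling for pgl-1 (0.10), pgl-3 (0.05), glh-2 (0.18), glh-4 (0.21), deps-1 (0.06), par-3 (0.02), cul-3 (0.16), gpi-1 (0.19), hel-1 (0.18), cdc-48.2 (0.17) and rpn-2 (0.18). They turned for glh-2 with quantiles (0.03), the 5 FPKM filter (0.00073) and without the 3 libraries (0.0037). For glh-4 they turned with length correction (0.01), quantiles (0.03), the 5 FPKM filter (0.03), total counts (0.00032), without DMSO replicate 2 (0.0012) and without the 3 libraries (0.02). For gpi-1 they turned with quantiles (0.01) and the 5 FPKM filter (0.01). The cause was not tested.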
